A study of Mus musculus with 2 samples.

Results

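The clustered protocadherins are 58 genes that lie side by side on mouse chromosome 18 and encode cadherin-type cell surface proteins. The members were taken by symbol, as all genes named Pcdha, Pcdhb or Pcdhg in the GENCODE M21 annotation, and all 58 were present among the 43346 mouse genes measured. They comprised 14 genes of the alpha cluster, 22 of the beta cluster and 22 of the gamma cluster. RNA was measured in adult cerebellum of C57BL/6J mice, an inbred laboratory strain, aged 8 weeks, in 2 libraries of polyadenylated RNA longer than 200 nucleotides and with the strand kept. The libraries form 1 group with no treatment, genotype or time contrast, so each result below is a level or a difference between replicates, and none has a p-value. Their labels describe mixed-sex littermates with a shared donor record and do not say how many animals went into each library.

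Each member of the alpha and gamma clusters has its own large variable exon with its own promoter, which is spliced to 3 constant exons shared by the whole cluster. The variable exon encodes the extracellular cadherin repeats and the membrane span, and the constant exons encode the shared cytoplasmic end. Beta genes have no constant exons, and nearly all are made of an uninterrupted exon. A neuron is known to choose a small set of alternate members at random, through CTCF and cohesin acting at promoters and enhancers, whereas the C-type members Pcdhac1, Pcdhac2, Pcdhgc3, Pcdhgc4 and Pcdhgc5 are expressed in a more regular way. The proteins bind copies of themselves across cells, which lets branches of a neuron such as the Purkinje cell recognise and avoid each other. In bulk tissue, fewer cells using a member and less RNA per cell cannot be told apart.

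The libraries held 79771873 and 80281011 expected counts in annotated genes. Xist had 45928 counts in replicate 1 and 26 in replicate 2, and 4 genes of the Y chromosome had 0 and 11890 counts, which goes against the pooled label of both libraries. They were therefore not repeats of the same RNA, but how much of the spread between them is technical cannot be told apart from sex and animal. Choroid plexus markers summed to 2120 TPM in replicate 1 and 779 TPM in replicate 2, where TPM is a level corrected for transcript length and library size. All 6 granule neuron and all 6 Purkinje neuron markers were at or above 1 TPM in both libraries, and 1 of 4 forebrain neuron markers was. Because of these differences, levels are given for each library.

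Of the 58 members, 53 reached 1 TPM in both libraries. The 5 below that level were Pcdha1, Pcdha8, Pcdhb1, Pcdhb2 and Pcdhb21. Among all 21474 protein-coding genes 60.9% reached it. The members were low to moderate in level, with a median of 3.43 TPM over all 58, against 4.77 TPM over all protein-coding genes. Over only those protein-coding genes that reached 1 TPM in both libraries, the median was 18.4 TPM. The summed level of the members was 333 TPM in replicate 1 and 294.0 TPM in replicate 2. The gamma cluster held 66.4% ± 0.529 of that sum (SD, n = 2), the beta cluster 20.1% ± 0.847 and the alpha cluster 13.5% ± 0.318. The gamma share includes the short transcript Pcdhgc4-203, described below, at 19.7 and 31.2 TPM, and is lower without it. All 22 gamma genes passed 1 TPM in both libraries, as did 19 of 22 beta genes and 12 of 14 alpha genes.

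**Figure D1:**
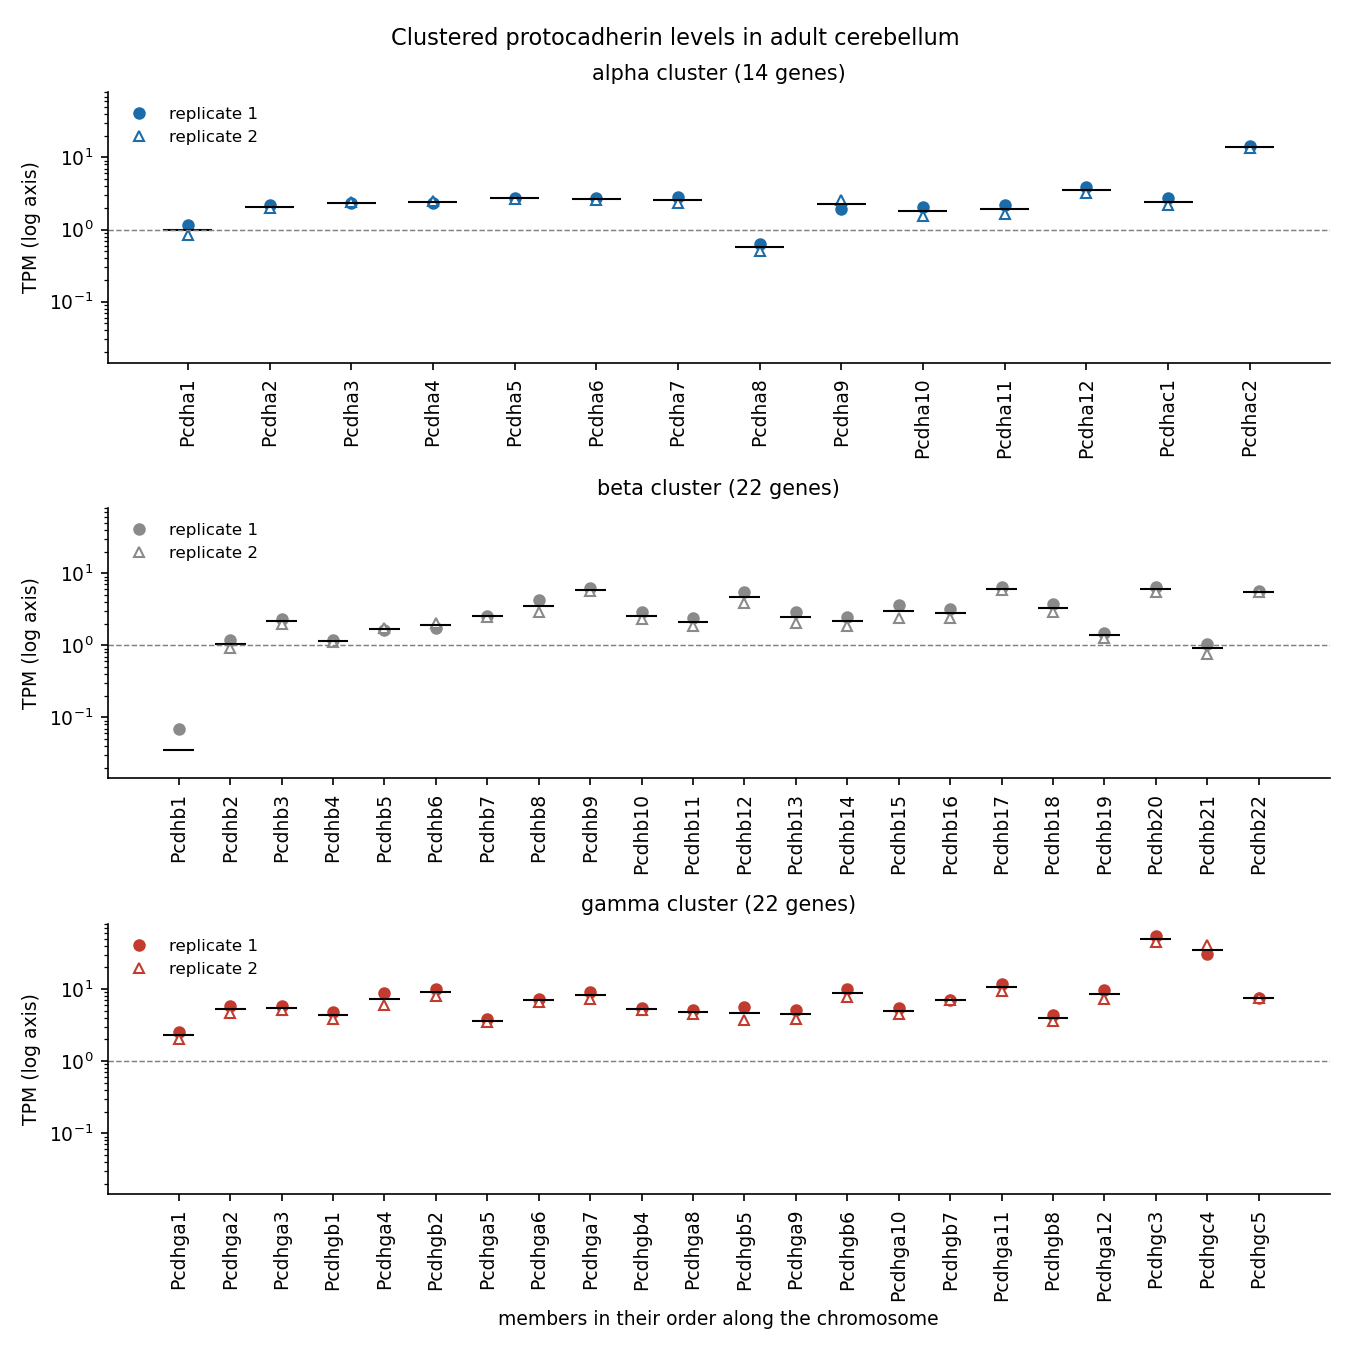
TPM of each of the 58 members (log axis) in replicate 1 (filled circles) and replicate 2 (open triangles), with black bars at the mean of both and a dashed line at 1 TPM; genes follow their order on the chromosome. Pcdhb1 in replicate 2 is at 0 and is not drawn. Pcdhgc3 at 54.6 and 44.6 TPM and Pcdhgc4 at 30.2 and 40.2 TPM stand above every other member, and Pcdhac2 stands above the rest of the alpha cluster.

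The C-type genes Pcdhgc3, Pcdhgc4 and Pcdhac2 held the 3 highest levels, and the other C-type genes lay among the alternate genes. Pcdhgc3 (ENSMUSG00000102918.1, mm10 chromosome 18, positions 37806364 to 37841873, plus strand) had the highest level, 54.6 TPM in replicate 1 and 44.6 TPM in replicate 2. Pcdhgc4 (ENSMUSG00000023036.10, positions 37815079 to 37841873) followed with 30.2 and 40.2 TPM, which did not overlap with Pcdhgc3. Without its short transcript Pcdhgc4-203, Pcdhgc4 was at 10.5 and 9.09 TPM and rank 4. Pcdhac2 (ENSMUSG00000102697.1, positions 37143503 to 37187657) was the third, at 14.6 and 13.4 TPM. Pcdhgc5 (ENSMUSG00000102543.1) had 7.62 and 7.63 TPM, and its mean was below those of the 5 highest alternate gamma genes. In replicate 2 it was above Pcdhga12 at 7.31 TPM and Pcdhga7 at 7.18 TPM. Its full-length transcript Pcdhgc5-201 was at 5.41 and 4.47 TPM, and Pcdhgc5-204, of 593 nucleotides, at 1.47 and 2.55 TPM. Pcdhac1 (ENSMUSG00000103255.1) was at 2.70 and 2.16 TPM and so lay among the alternate alpha genes. The 5 C-type genes together held 34.8% ± 2.70 of the summed level of all members, or 29.0% ± 0.380 without Pcdhgc4-203.

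Alternate gamma genes had the highest median of the alternate groups. The 12 gamma A genes had a median of 5.37 TPM and the 7 gamma B genes a median of 5.33 TPM. The 4 highest of these 19 were Pcdhga11 at 11.9 and 9.48 TPM, Pcdhgb2 at 9.94 and 8.12 TPM, Pcdhgb6 at 10 and 7.79 TPM, and Pcdhga12 at 9.62 and 7.31 TPM. Pcdhga1, the first gene of the cluster, was lowest at 2.56 and 2.01 TPM. From the highest to the lowest alternate gamma gene the mean level spanned 4.67-fold, and each of the 19 was above 1 TPM in both libraries.

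Beta genes spanned a wider range. Pcdhb17 was highest at 6.47 and 5.80 TPM, followed by Pcdhb20 at 6.50 and 5.52 TPM, Pcdhb9 at 6.15 and 5.68 TPM and Pcdhb22 at 5.59 and 5.44 TPM. The level of Pcdhb22 is the sum of 2 transcripts. Pcdhb22-201, of 2 exons and 2266 nucleotides, was listed at 2.96 and 2.85 TPM. Pcdhb22-202, of an uninterrupted exon, was listed at 2.63 and 2.60 TPM. Pcdhb1, at the alpha end of the cluster, was lowest, with 9 counts in replicate 1 and 0 in replicate 2 (0.0700 and 0 TPM). A count of 0 allows up to 3 counts in that library, and this covers counting error only. The other 21 beta genes had means from 0.910 TPM (Pcdhb21) upward. The deposited Ensembl 65 RPKM of the same 22 genes on the mm9 assembly, another level per length on a lower scale, gave nearly the same order (Spearman's rho 0.95 across genes of the same libraries) and also placed Pcdhb17 highest, at 1.08 and 0.993 RPKM.

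Alternate alpha genes were the lowest group, with a median of 2.30 TPM over 12 genes. Pcdha12 was highest at 3.86 and 3.21 TPM, followed by Pcdha5 at 2.76 and 2.65 TPM, Pcdha6 at 2.70 and 2.57 TPM and Pcdha7 at 2.87 and 2.31 TPM. Pcdha8 was lowest at 0.64 and 0.50 TPM. GENCODE gives the symbol Pcdha11 to 2 genes; the one called Pcdha10 here (ENSMUSG00000007440.10) starts where RefSeq places Pcdha10, and stood at 2.04 and 1.54 TPM, beside 2.21 and 1.67 TPM for Pcdha11 (ENSMUSG00000102206.1). Position in the cluster did not order the alternate alpha levels (Spearman's rho 0.11 over 12 genes). The same measure was 0.25 over the 19 alternate gamma genes and 0.47 over the 22 beta genes. These correlations are across genes, which are not independent replicates.

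In 48 of the 57 neighbouring pairs in the order of mean level the ranges of the 2 libraries overlapped. Both genes of a pair were measured in the same libraries, so an overlap does not mean that their order changed. Pcdhga11, at 11.9 and 9.48 TPM, lay above its neighbour Pcdhgb2, at 9.94 and 8.12 TPM, in both libraries although the ranges overlap. The pairs that did not overlap included the steps from Pcdhgc3 to Pcdhgc4, from Pcdhgc4 to Pcdhac2 and from Pcdhac2 to Pcdhga11, and at the low end those from Pcdhb21 to Pcdha8 and from Pcdha8 to Pcdhb1. The step from Pcdhgc4 to Pcdhac2 turned round without Pcdhgc4-203, when Pcdhgc4 lay below Pcdhac2 in both libraries.

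Splicing of each variable exon into its cluster's constant region was read from the deposited junction table, which counts reads across each intron on the mm9 assembly. Ensembl 65, the annotation of that table, holds this intron for 9 of the 14 alpha and 9 of the 22 gamma variable exons. Each intron ending at constant exon 1 was therefore matched by its exact length to introns of GENCODE M21, and in all 17 cases where Ensembl 65 also named the exon the name was the same. All 14 alpha and all 22 gamma variable exons had junction reads. The junction file numbers its replicates without naming libraries.

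In the alpha cluster 549 reads joined a variable exon to constant exon 1, over introns of 9624 to 223482 bases. Pcdhac2 took 237 of them (125 and 112 in the replicates), or 43.2% (95% Clopper-Pearson interval 39.0% to 47.4%). The largest count of an alternate exon was 42, for Pcdha4, and Pcdhac1 had 23. The median of the 12 alternate exons was 27 reads. Pcdha8 had 1 read, and Pcdha1 had 14. At these depths the alternate alpha exons were not well resolved from each other: reads of Pcdha3 were 16 and 3 in the replicates and those of Pcdha10 were 19 and 8. PCR duplicates are not identified in the table, so such intervals cover counting error only.

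In the gamma cluster 2740 reads joined a variable exon to constant exon 1. Pcdhgc3 took 932 (504 and 428), or 34.0% (32.2% to 35.8%). Pcdhgc4 took 205 (106 and 99) and Pcdhgc5 took 105 (50 and 55). Among alternate exons Pcdhga11 had 202 reads, as many as Pcdhgc4 within counting error, followed by Pcdhgb6 with 166, Pcdhgb2 with 118, Pcdhga7 with 110 and Pcdhga3 with 108. Pcdhgb8, annotated as a polymorphic pseudogene, was lowest with 10. Gamma A exons took 37.3% of the reads and gamma B exons 17.4%. Between replicates, Spearman's rho was 0.95 over the 19 alternate gamma exons and 0.46 over the 12 alternate alpha exons, which have fewer reads.

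**Figure D2:**
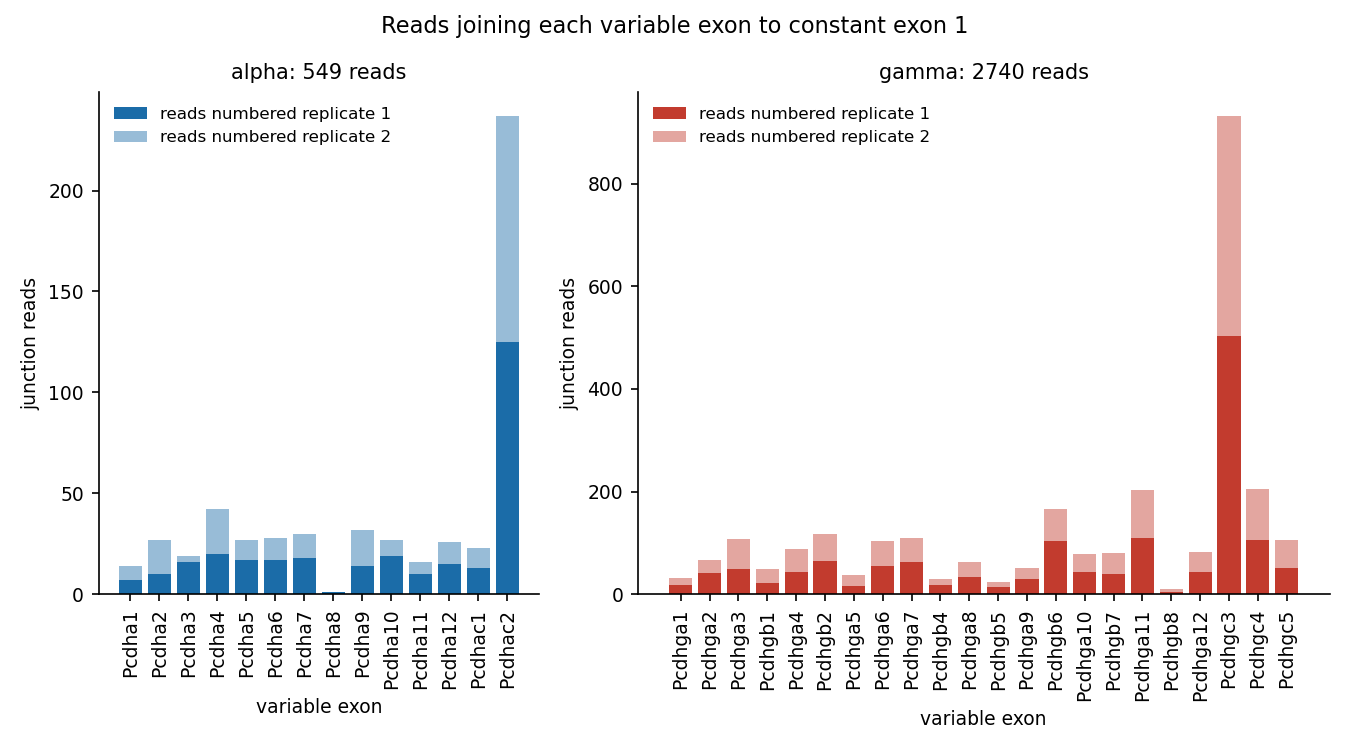
Reads joining each variable exon to constant exon 1, stacked by the replicate number of the junction table, for alpha (left) and gamma (right, on a larger scale). Pcdhac2 with 237 reads and Pcdhgc3 with 932 reads exceed all others in their clusters, and Pcdha8 with 1 read and Pcdhgb8 with 10 are lowest.

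C-type exons took 47.4% of alpha junction reads (43.1% to 51.6%) and 45.3% of gamma junction reads (43.5% to 47.2%). In TPM the C-type genes held 38.9% ± 0.334 of the alpha cluster and 44.5% ± 3.59 of the gamma cluster. The ratio of gamma to alpha was 4.97 and 4.87 in TPM, 4.99 in reads from variable exons and 4.97 in reads between constant exons 2 and 3, but 3.84 in reads between constant exons 1 and 2. The gamma TPM here includes the short transcript Pcdhgc4-203, at 19.7 and 31.2 TPM with 4 junction reads. Without it the TPM ratio is lower in both libraries. In alpha the reads from variable exons came to 51.9% of the 1058 reads between constant exons 1 and 2, and in gamma to 67.4% of 4067.

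For 27 of the 36 alpha and gamma members, the share of the cluster by TPM and that by junction reads were within 1.5-fold of each other. In 5 members the TPM share was more than 2-fold the junction share: Pcdha8, Pcdhgb4, Pcdhgb5, Pcdhgb8 and Pcdhgc4. Ensembl 65 lacks the intron to constant exon 1 of the first 4 of these, as it does for 5 alpha and 13 gamma variable exons in all. It holds that of every C-type exon. The part of this annotation in the junction counts was not tested. Pcdhgc4 was the largest of these in level, with 16.9% of gamma TPM and 7.48% of gamma junction reads.

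**Figure D3:**
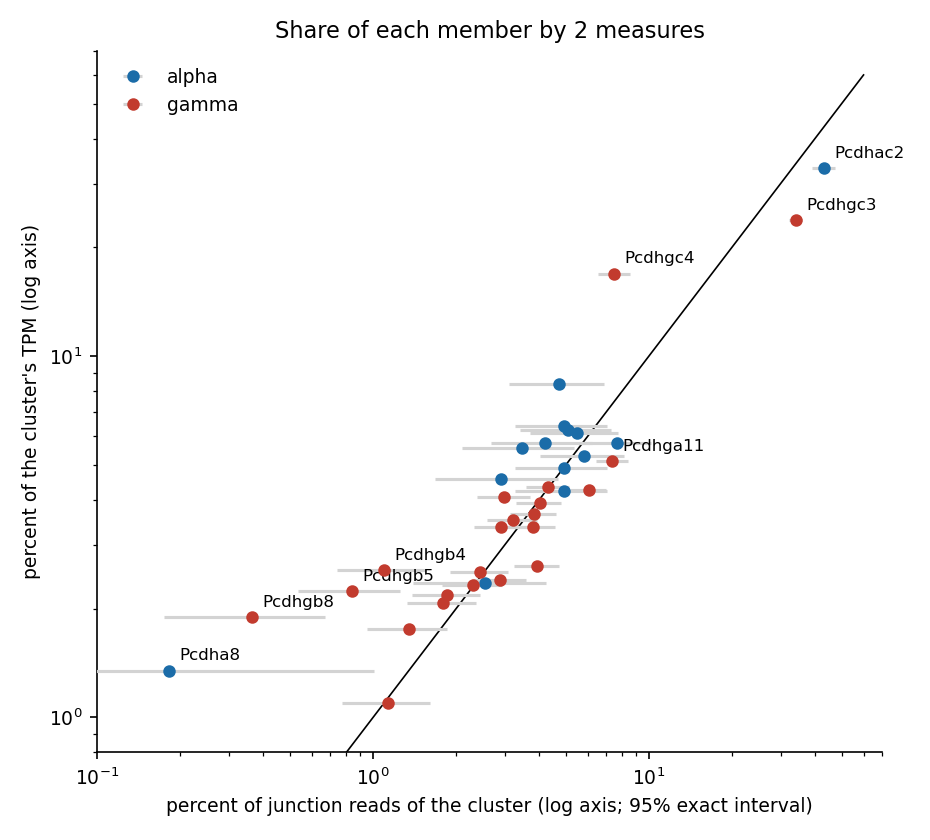
Share of each alpha (blue) and gamma (red) member in its cluster by junction reads (x axis, with the 95% exact interval) and by mean TPM (y axis), both on log axes; the line marks equality. Pcdhgc4 lies above the line at 7.48% and 16.9%, and Pcdhgb8, Pcdhgb4, Pcdhgb5 and Pcdha8 do so at lower levels.

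The level of Pcdhgc4 rested on a short transcript. Transcript Pcdhgc4-203, of 2272 nucleotides, starts in an exon of 153 nucleotides, and 93.3% of its length is constant exons. It held 65.3% of the gene's TPM in replicate 1 and 77.4% in replicate 2, with 2166 and 3613 expected counts, while the full-length Pcdhgc4-201 held 31.0% and 19.9%. The junction reads were divided the other way: 4 reads left the short exon and 205 left the variable exon, so the short exon took 1.91% of the gene's reads (0.524% to 4.83%). Ensembl 65 lacks the intron of the short exon and holds that of the variable exon, and the part of this in the split was not tested. Without Pcdhgc4-203 the level of Pcdhgc4 was 10.5 and 9.09 TPM, and the gene moved from rank 2 to rank 4 among the members. The C-type share of gamma TPM was then 36.7%, in place of 44.5%.

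A gene that is no member showed the same split. Gm38182, a processed transcript on the same strand, starts just before gamma constant exon 1 and shares the constant exons. Its transcript Gm38182-204, of 741 nucleotides, was listed at 35.1 and 44.3 TPM with 1012 and 1340 expected counts, and 6 junction reads left its exon. Gm38182-202, which starts in a neighbouring exon of 306 nucleotides, had 81 junction reads (48 and 33) and 287 expected counts over both libraries. Over the 22 gamma variable exons there were 22.2 to 189 expected counts per junction read, with a median of 33.8. Pcdhgc4-203 had 1445 and Gm38182-204 had 392 expected counts per junction read, and Gm38182-202 had 3.54. This measure is not corrected for transcript length, and a shorter transcript gives fewer counts per junction read. Gm38182-202 has 931 nucleotides and Pcdhgc4-203 has 2272, against 4687 in Pcdhgc3-201. Pcdhgb8 was the highest variable exon on this measure in gamma and Pcdha8, at 318, the highest in alpha.

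**Figure D4:**
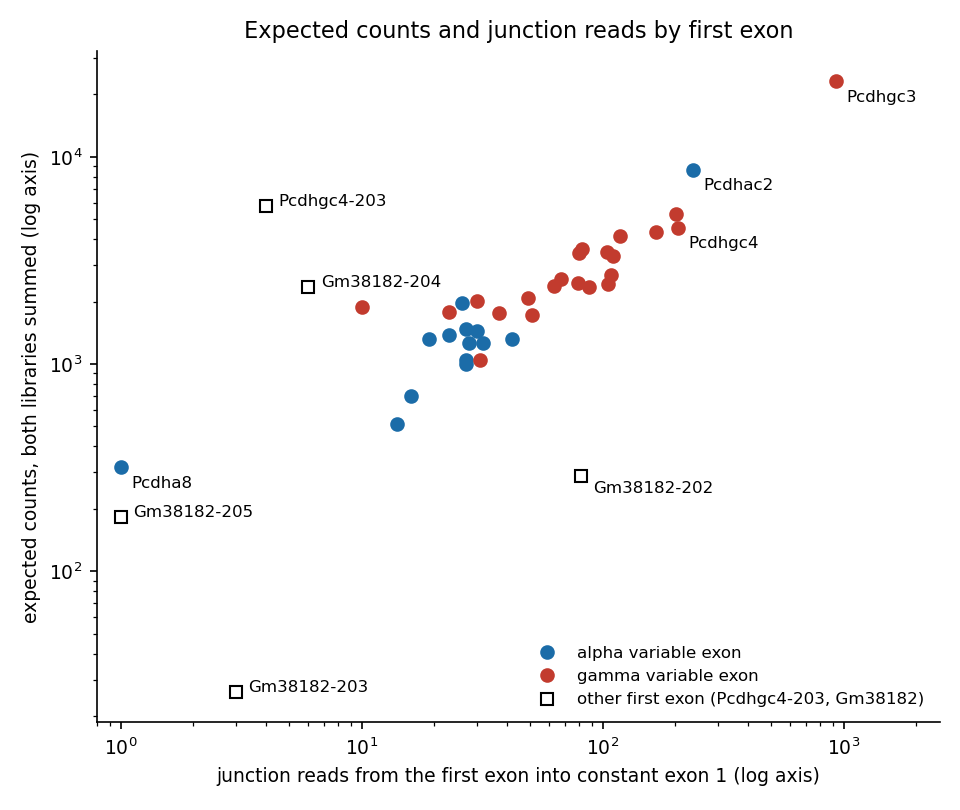
Expected counts summed over both libraries (y axis) against junction reads into constant exon 1 (x axis), both on log axes, for each alpha (blue) and gamma (red) variable exon and for other exons that splice to gamma constant exon 1 (open squares). Pcdhgc4-203 at 5779 counts and 4 reads and Gm38182-204 at 2352 counts and 6 reads lie above the variable exons, and Gm38182-202 at 287 counts and 81 reads lies below them.

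Much of each alpha and gamma transcript cannot be assigned by sequence alone. The constant exons made up 48.6% to 54.9% of the full-length alpha transcripts and 41.7% to 45.9% of the gamma transcripts. The variable exons themselves were largely distinct from each other. Of all windows of the read length, a median of 5.13% per alpha variable exon also occurred in another member's variable exon, and at most 12.8%, in Pcdha11. In Pcdhac1 and Pcdhac2 no window was shared. In 14 of 22 gamma variable exons, the 3 C-type exons included, no window was shared, and the highest share was 10.6% in Pcdhgb2, which shared most windows with Pcdhgb1. Pcdhga4 was among these 14, but over its whole transcript 64.0% of windows were shared, against a gamma median of 44.1%. In beta the highest shares were 7.71% in Pcdhb21 and 5.45% in Pcdhb22, whose annotated exons overlap on the chromosome. Levels of these pairs are uncertain to that extent. GC content of the exons was 51.3% to 57.0% in alpha, 48.9% to 56.8% in gamma and 39.1% to 49.0% in beta, where the exon also holds the untranslated ends.

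Splicing within the constant regions was mostly to the annotated exons. In gamma, 54 reads (29 and 25) used an acceptor 3 bases before the annotated start of constant exon 2, or 1.31% (0.986% to 1.71%) of 4121 reads into either site. The share was 1.38% and 1.24% in the replicates. In alpha, 73 reads (43 and 30) crossed an intron inside the last constant exon. It was absent from Ensembl 65 and has the length of an intron that 6 GENCODE transcripts of 5 alpha genes contain, which splits the last constant exon in 2. Those reads amounted to 9.91% of the 737 reads between constant exons 2 and 3. The 6 transcripts held 14.1% ± 0.904 of alpha TPM. In Pcdha6 a transcript of this kind, Pcdha6-201, was listed at 54.0% and 97.6% of the gene in the 2 libraries. From posterior mean TPM it was 49.3% and 77.2%, so the size of this difference depends on the estimate. Pcdha6-203, which also has this intron, was listed at 36.2% and 2.38%.

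No read joined an alpha variable exon to the gamma constant region. A count of 0 allows up to 3 reads, or 0.546% of the 549 alpha variable exon reads. GENCODE annotates 3 genes that run from alpha into gamma, and they held 6.89 and 3.56 expected counts in all. Splices between the large exons of 2 members, beta exons included, were rare: 106 junctions with 173 reads in total, and 8 of them with at least 3 reads. The most frequent joined Pcdhgb1 to Pcdhgb5 (22 reads, 13 and 9) and Pcdhgb2 to Pcdhgb5 (17 reads, 11 and 6). In the former both sites lay 543 bases before the ends of their exons, and in the latter 540 and 543 bases. The 40 bases before the site were identical at 39 positions in both pairs, and the 40 bases after it at 33. Junctions with a beta exon were not scored for likeness. Over the 54 scored junctions, within alpha or within gamma, the median was 13.5 of 40 bases after the site. The part of sequence likeness in these junctions was not tested.

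No member was 2-fold apart between the libraries. Ratios were taken on the log2 CPM scale, counts relative to library size, after TMM scaling for genes whose counts summed to 100 or more, which 57 members passed and Pcdhb1 did not. Among all 15543 such genes 0.637% were 2-fold apart. Relative to all genes, whose median was 0.00, the members were slightly lower in replicate 2, with a median log2 ratio of -0.20, and 46 of 57 were below 0. These ratios are not independent of each other, as counts of alpha and gamma genes include reads from shared constant exons. The medians were -0.14 in alpha, -0.24 in beta and -0.21 in gamma. The lowest ratio was that of Pcdhb15, at -0.55, and the highest that of Pcdha9, at 0.49. Pcdhgc4 was at 0.32, and the other gamma gene above 0 was Pcdhgb7 at 0.05. Within Pcdhgc4 the short transcript was listed at 19.7 and 31.2 TPM and the full-length transcript at 9.37 and 7.99 TPM.

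Cell type markers moved between the libraries as well. All 6 granule neuron markers and all 6 Purkinje neuron markers were lower in replicate 2, with median log2 ratios of -0.24 and -0.19. All 4 oligodendrocyte markers were higher, with a median of 0.32, and all 5 choroid plexus markers were lower, with a median of -1.19. All 4 microglia and all 3 endothelium markers were higher, with medians of 0.16 and 0.09. All 3 meninges markers, 5 of 6 markers of astrocytes and Bergmann glia and 3 of 5 interneuron markers were lower, with medians of -0.30, -0.11 and -0.11. Their part in the ratios of the members was not tested.

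**Figure D5:**
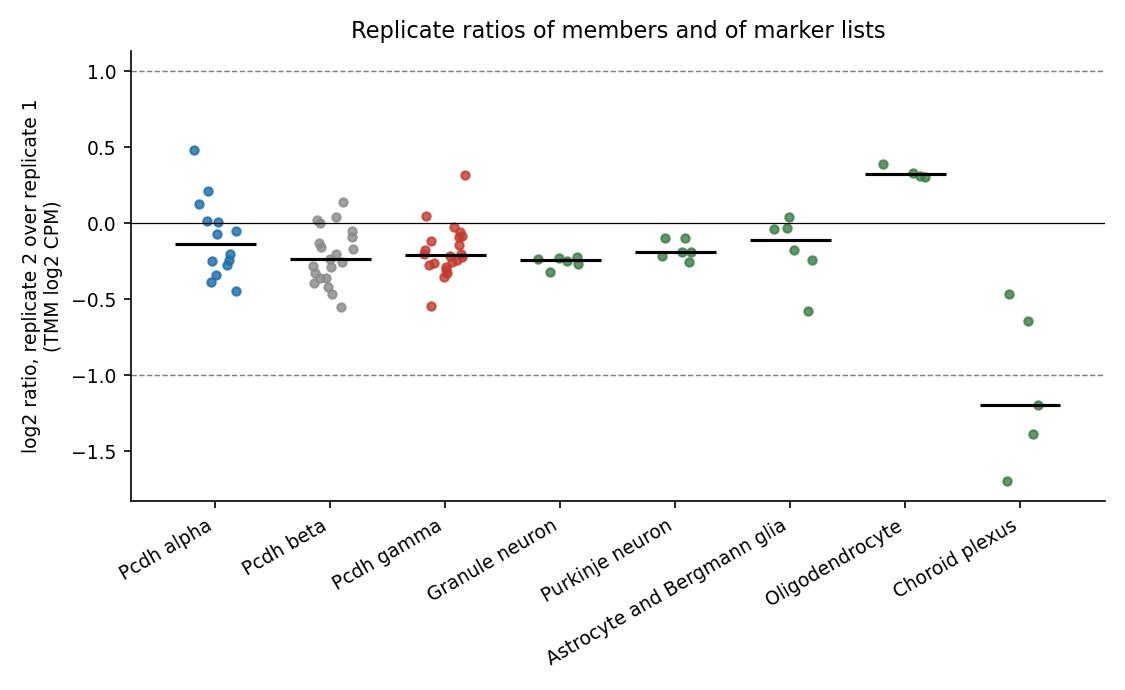
Log2 ratio of replicate 2 over replicate 1 (TMM log2 CPM; 1 point per gene, black bars at medians) for the alpha, beta and gamma members and for 5 marker lists; dashed lines mark 2-fold. Members lie between -0.55 and 0.49, with medians of -0.14, -0.24 and -0.21, beside -0.24 for granule neuron and 0.32 for oligodendrocyte markers.

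The genes known to act on or with the clustered protocadherins were widely present. All 22 measured regulators of promoter choice, of 23 symbols listed, reached 1 TPM in both libraries, with a median of 18.3 TPM. The cohesin gene Rad21 was highest at 55.4 and 52.8 TPM, followed by Smc1a at 40.2 and 38.0 TPM and the cohesin loader gene Mau2 at 39.1 and 35.6 TPM. Ctcf, which encodes the DNA-binding insulator protein that sits at the promoters, had 29.9 and 26.4 TPM. The other cohesin core genes Smc3 (20.96 and 20.38 TPM), Stag1 (22.99 and 20.31 TPM) and Stag2 (20.5 and 18.8 TPM) were near that level. Smchd1, a chromatin repressor of the clusters, had 15.9 and 14.9 TPM, and the de novo DNA methyltransferase gene Dnmt3b was lowest, at 1.69 and 1.04 TPM.

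All 18 genes of partners and cleavage passed 1 TPM, with a median of 36.5 TPM. Brk1, a small subunit of the WAVE actin regulator that binds protocadherin tails, led with 147 and 151 TPM, followed by its partners Cyfip2 at 133 and 127 TPM and Nckap1 at 116 and 110 TPM. The kinase gene Ptk2b, inhibited by alpha and gamma tails, was lowest at 4.30 and 4.06 TPM.

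The large cadherin genes Fat1, Celsr3 and Fat2 reached higher levels than any clustered member. Of 20 protocadherins and large cadherins outside the clusters, 17 passed 1 TPM, with a median of 3.56 TPM, close to the 3.43 TPM of the clustered genes. Fat1 was highest at 108 and 96.7 TPM, Celsr3 had 80.0 and 66.8 TPM and Fat2 had 68.4 and 54.9 TPM, while Celsr1 was lowest at 0.280 and 0.190 TPM. All 17 classical cadherins and catenins passed, with a median of 11.7 TPM. Ctnnb1, which encodes beta-catenin, stood at 100.1 and 99.96 TPM, Cdh2 at 36.5 and 34.8 TPM, Cdh22 at 37.1 and 32.9 TPM, and Cdh9 lowest at 1.05 and 1.04 TPM.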

How the data were processed

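Strand-specific polyadenylated RNA sequencing covered 2 libraries of 1 group. The deposited index names mm10 and GENCODE M4 for the library files, whose headers use RSEM's column names. The sources used here name no aligner or program version. Deposited values were expected counts, TPM (also as posterior means), FPKM and each transcript's percent of its gene's TPM. On mm9 the authors deposited RPKM per Ensembl 65 gene, junction read counts and contig coverage signal over both replicates, whose numbers name no library.

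Names and exons came from GENCODE M21, by identifier without version; 98.0% of genes matched. ERCC spike-ins (2.85% and 2.95% of counts) and a phiX control (1.16% and 1.80%) were left out. Expected counts were rounded, and log2 CPM came from edgeR 4.0.16 in R 4.3.3 (TMM, prior count 2, at least 100 counts over both libraries), tested on simulated counts. Members detected had 1 TPM in both libraries. Junctions were named by intron length, never by converting coordinates. Clopper-Pearson intervals are at 95%.

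All members could be named; single values are given for the C-type genes, the 4 highest and the lowest alternate gene of each cluster, and of each gene list the 3 highest and the lowest with Ctcf, cohesin and Smchd1. Others named for junctions or transcripts were chosen after their values were seen. The members and lists were chosen with earlier results of these data known. Alternatives covered units, thresholds, scaling (DESeq2 1.42.0), junction filters and leaving out a replicate.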

Additional observations from a re-analysis of the deposited data

How the results depend on the processing

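Of 72 alternatives over 18 results, 51 stayed within a set tolerance. For counts of members it was 1.5-fold, and for most shares the SD between replicates. For the junction share of an exon it was set from the interval. For log2 ratios it was the SD across members, and for strand a fixed margin. Leaving out a replicate leaves the other library's value, which always lies within the SD of the mean over both. For TPM shares and Pcdhgc4-203 these alternatives could therefore only stay. Within a library FPKM is TPM times a constant, so the FPKM shares could also only stay. Shares of reads over introns absent from Ensembl 65 were likewise held to the SD between replicates. Without a replicate they could hardly move, and in beta they were 100% either way. The 51 therefore include alternatives with a fixed outcome. With expected counts, which are not length-corrected, the alpha, beta and gamma shares were 16.8%, 18.1% and 65.1%, and the C-type shares 42.3% in alpha and 40.5% in gamma. With mm9 RPKM per gene the cluster shares were 15.9%, 24.6% and 59.6%. Those values have 1 gene entry in alpha and 1 in gamma beside 22 beta genes, so they are not sums over the same members. In that unit 0 of 22 beta genes reached 1 RPKM in both replicates, in place of 19 at 1 TPM. The alpha C-type share was 47.4% by junction reads, and the gamma share 36.7% without Pcdhgc4-203, a choice made after seeing the data. With junctions annotated in Ensembl 65 alone, which drops the variable exons whose intron it lacks, Pcdhac2 took 53.4% and Pcdhgc3 48.7%. With no count filter 1 of 58 members was 2-fold apart, Pcdhb1, against 6.82% of all genes. Reads over introns absent from Ensembl 65 made up 11.8% in alpha and 12.1% in gamma, 7.33% and 9.39% for junctions of at least 10 reads, and 4.77% and 3.60% when GENCODE M21 introns of the same length counted as annotated; in beta the share was 100%, or 95.5%. By covered length the minus strand took 15.1% in alpha and 14.5% in gamma, in place of 2.67% and 1.09% of signal. Where not stated, the cause was not tested.

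Leaving out each replicate gave 53 and 56 members detected, alpha shares of 13.3% to 13.7%, beta shares of 19.5% to 20.7%, gamma shares of 66.1% to 66.8%, and C-type shares of 38.6% to 39.1% in alpha and 42.0% to 47.1% in gamma. Pcdhac2 then took 41.4% to 45.3% of alpha reads, Pcdhgc3 33.7% to 34.3% of gamma reads, and Pcdhgc4-203 65.3% to 77.4% of its gene. No paired analysis was possible because there is 1 group. RPKM of variable exons was not run, as the deposited exon values are sums over transcripts and many variable exons are not in Ensembl 65. A ratio needs both replicates, so none was left out there. Depth limits the alternate alpha exons most, with a median of 27 junction reads.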

Other observations

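Signal over the clusters came almost entirely from the strand of the genes. Contigs on the minus strand held 2.67% of the signal in the alpha span, 0.0351% in the beta span and 1.09% in the gamma span on mm9. Over the alpha span 65 minus-strand contigs covered 37581 bases, at a mean signal of 0.0932 against 0.608 on the plus strand, and over the beta span 5 contigs covered 764 bases. Of the 6 minus-strand genes annotated within the alpha span none reached 1 TPM in both libraries, and their TPM summed to 0.590 and 0.980. Within the gamma span 2 of 5 did: BC037039 at 2.26 and 1.78 TPM and Gm26672 at 1.67 and 1.33 TPM, chosen after their values were seen.

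Junctions within the beta cluster were sparse, with 155 reads over 116 junctions, all absent from Ensembl 65. Of 114 that matched no GENCODE intron length, 90 had 1 read. Retained-intron transcripts were measured in 9 members and held 3.23% to 22.5% of their gene's TPM on average, the highest being Pcdhga9-202 at 21.7% and 23.2%. In 37 of the 58 members a lone transcript was measured.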
